A study of Rattus norvegicus with 288 samples.

Results

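The genes described here were listed for a very long genomic span, with earlier results of these data known. They are not all of the longest genes. The list holds 47 rat genes, of which 35 had a probe set of their own on the array and 32 were measured above the filter in at least 1 tissue, among 14218 genes on the array with a single symbol. In the RefSeq annotation of the assembly GRCr8 their spans ran from 193 kb (Tcf7l2) to 2368 kb (Dmd), with a median of 691 kb against 15.5 kb for all coding genes. A total of 44 exceeded 300 kb and 27 exceeded 600 kb, and the shortest was longer than 95.2% of coding genes. A total of 12 had no probe set carrying their symbol alone (Magi2, Ptprg, Lrp1b, Macrod2, Exoc4, Auts2, Pard3b, Diaph2, Tbc1d5, Ust, Sox5 and Naaladl2), and 3 were too dim in every tissue (Nrxn3, Atxn1 and Fbxl17). The genes tested numbered 32 in kidney, 29 in liver and 30 in heart, and 28 were tested in all of them.

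Expression was measured in 3 organs (kidney, liver and heart) of 96 Sprague-Dawley rats, all male and aged 8 weeks, each fitted with a femoral vein cannula, with 1 array per rat and tissue and 4 rats per group. Each rat was infused with oxaliplatin (15 mg per kg) or its vehicle D5W (dextrose in water), and was then dosed by mouth with sterile water or with F68, the vehicles of sunitinib and sorafenib, or with sunitinib (5 mg per kg) or sorafenib (25 mg per kg). Tissues were taken 1, 6 or 24 h after dosing. The main comparison sets the 8 rats given oxaliplatin and an oral vehicle against the 8 given D5W and an oral vehicle at the same time, and the rats given a kinase inhibitor form a separate comparison of the same kind. Rats given water or sunitinib were dosed on another day than rats given F68 or sorafenib, so every oxaliplatin rat was compared with D5W rats of its own day and values are also given within each day.

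Oxaliplatin is a platinum drug whose adducts form mostly on neighbouring guanines of DNA. Such adducts can stop RNA polymerase II, and transcription-coupled repair clears them from the transcribed strand. A polymerase on a longer gene passes more template in each round of transcription and needs more time to finish a transcript, so the question is whether levels of the longest genes were lower after oxaliplatin. Many of these genes encode adhesion receptors, scaffolds, vesicle traffic proteins and transcription factors, and several (Fhit, Wwox and, in humans, Ccser1) lie at common fragile sites, where chromosomes break under replication stress.

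The promoters of 36 of the 47 genes were found in RefSeq (300 bases around the annotated start, mostly before it, GRCr8). The windows of Ccser1 and Ptprm, whose brightest probe sets had the largest falls in kidney and in liver over both oral vehicles, and of Dmd, the longest gene of the list and one not called in that comparison at any time, are shown 5′ to 3′ on the gene's strand. Capitals mark every GG on the printed strand and every CC, which is GG on the opposite strand. The windows are chr4:91622566-91622865 on the plus strand, chr9:114790428-114790727 on the minus strand and chrX:53278794-53279093 on the plus strand.
Ccser1: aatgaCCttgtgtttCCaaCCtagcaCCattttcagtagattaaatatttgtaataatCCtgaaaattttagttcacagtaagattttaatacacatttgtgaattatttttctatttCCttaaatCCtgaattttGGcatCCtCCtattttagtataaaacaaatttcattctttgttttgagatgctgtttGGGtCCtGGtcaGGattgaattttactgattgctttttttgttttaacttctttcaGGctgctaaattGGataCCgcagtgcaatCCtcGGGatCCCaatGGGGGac
Ptprm: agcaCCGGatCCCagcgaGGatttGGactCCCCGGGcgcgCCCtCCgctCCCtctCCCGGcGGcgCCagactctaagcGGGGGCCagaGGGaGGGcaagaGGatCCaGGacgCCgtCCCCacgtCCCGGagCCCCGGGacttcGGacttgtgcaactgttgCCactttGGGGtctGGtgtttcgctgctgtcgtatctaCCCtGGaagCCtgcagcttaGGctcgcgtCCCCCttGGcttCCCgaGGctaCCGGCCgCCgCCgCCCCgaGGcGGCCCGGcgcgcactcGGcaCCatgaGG
Dmd: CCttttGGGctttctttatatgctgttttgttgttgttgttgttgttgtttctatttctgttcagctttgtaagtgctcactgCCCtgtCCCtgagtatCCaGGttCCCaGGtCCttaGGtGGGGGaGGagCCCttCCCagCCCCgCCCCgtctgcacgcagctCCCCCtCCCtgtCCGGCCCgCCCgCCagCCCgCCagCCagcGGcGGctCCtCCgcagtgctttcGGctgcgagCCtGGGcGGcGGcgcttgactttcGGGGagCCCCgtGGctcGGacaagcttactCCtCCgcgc
Counted with overlaps on both strands, GG occurred 27 times in the Ccser1 window, 80 times in that of Ptprm and 66 times in that of Dmd. The 36 windows held from 21 to 87, with a median of 66, against a median of 46 in all 33469 promoter windows, 100% of which held at least 1 GG. As many as Ccser1 were held by 87.3% of all windows, as many as Dmd by 19.3% and as many as Ptprm by 6.67%. The transcribed bodies of the genes were not examined, since a genome was not used here.

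Each tissue carried its own markers, except that 1 liver and 1 kidney array (both 24 h, D5W then sorafenib) carried those of another tissue and were left out, which touches the kinase inhibitor comparisons at 24 h and the spread shared by all groups of these tissues. The median log2 level of the arrays kept ran from 6.63 to 6.69 in heart, from 7.32 to 7.81 in kidney and from 6.66 to 6.78 in liver.

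In kidney 24 of 32 very long genes were lower at 6 h after oxaliplatin, 0 were higher and 8 did not pass. Among all 12310 genes tested 7.88% were lower, and among 292 genes over 300 kb that are not on the list 44.5%. At 1 h 8 of 32 were lower (4.96% of all genes), and at 24 h 7 of 32 (2.19% of all genes). The median difference over the 32 genes was -0.15 log2 at 1 h, -0.33 at 6 h and -0.10 at 24 h, beside medians of all genes of -0.02, 0.01 and 0.01. At 6 h the difference was below 0 in 32 of 32 genes and in 46.2% of all genes. A gene was called at a Benjamini-Hochberg adjusted p under 0.05 over all genes tested in limma, and differences are log2 oxaliplatin minus D5W, with the standard error after ±. In whole tissue, fewer cells of a type and less RNA per cell cannot be told apart.

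**Figure D1:**
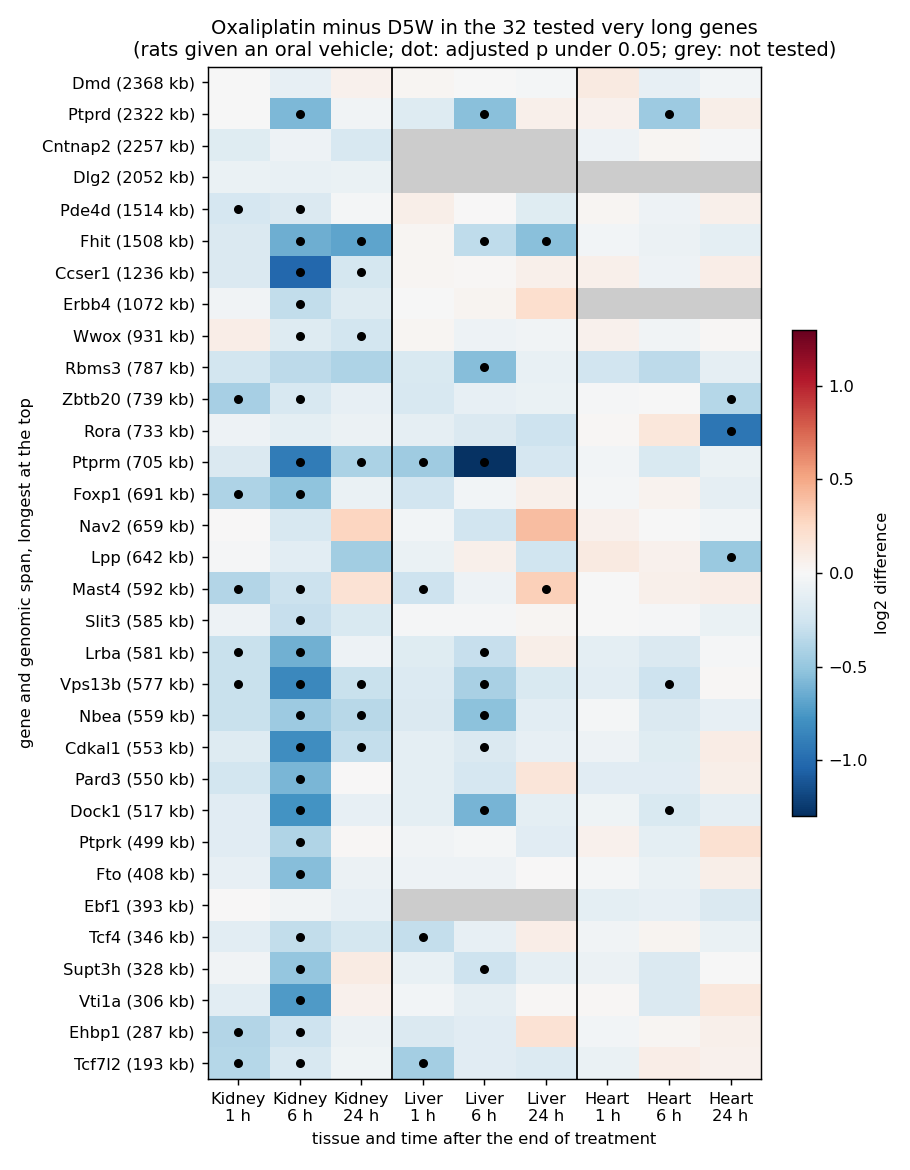
Log2 difference of oxaliplatin from D5W in rats given an oral vehicle, for the 32 tested genes (rows, longest span at the top) in each tissue and time (columns). Dots mark an adjusted p under 0.05 and grey cells genes not tested in that tissue. Most dots lie in the kidney column at 6 h, where 24 of 32 genes were lower.

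The median log2 level of the 32 genes in single kidneys at 6 h ran from 8.39 to 8.51 (median 8.47) in D5W rats and from 7.77 to 8.13 (median 7.98) in oxaliplatin rats, so the groups did not overlap. At 1 h the ranges were 8.48 to 8.64 and 8.19 to 8.50, and at 24 h 8.37 to 8.69 and 8.24 to 8.57, with overlap at both times. In single genes, every oxaliplatin kidney lay below every D5W kidney in 5 of the 32 genes at 1 h, 13 at 6 h and 2 at 24 h. The share of all genes with such a separation was 0.569%, 1.45% and 0.496%.

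Ccser1, which encodes a coiled-coil serine-rich protein, had log2 levels from 7.69 to 8.18 (median 8.09) in D5W kidneys at 6 h and from 6.74 to 7.27 (median 7.02) in oxaliplatin kidneys. All 8 oxaliplatin rats lay below all 8 D5W rats. The difference was -1.02 ± 0.08, a 2.03-fold lower level (adjusted p = 2.18e-18). At 1 h it was -0.19 ± 0.08 (adjusted p = 0.121), and at 24 h -0.23 ± 0.08 (adjusted p = 0.0461), when the ranges overlapped. Of the other fragile-site genes, Fhit, a hydrolase of dinucleoside polyphosphates, ran from 8.79 to 9.92 (median 9.50) in D5W kidneys and from 8.57 to 8.94 (median 8.81) after oxaliplatin at 6 h, with overlap. The difference was -0.64 ± 0.14 (adjusted p = 0.000432). At 24 h it ran from 9.42 to 10.25 (median 9.89) and from 8.17 to 9.51 (median 9.35), 1.61-fold lower (-0.69 ± 0.14, adjusted p = 0.000633). Within the rats given water, this difference of -0.52 did not pass (adjusted p = 0.204). Wwox, a WW-domain oxidoreductase, depended on the probe set. Its brightest one differed by 0.08 at 1 h, -0.17 ± 0.05 at 6 h and -0.24 ± 0.05 at 24 h (adjusted p = 0.00111), when the oxaliplatin kidneys (7.17 to 7.43) all lay below the D5W kidneys (7.47 to 7.59). The other, with a mean log2 level of 6.89 against 7.47, differed by -0.19 ± 0.12, -0.96 ± 0.12 (adjusted p = 1.13e-09) and -1.2955 ± 0.12 (adjusted p = 1.64e-13), the last the largest difference of any probe set of the listed genes with both vehicles. In liver this dimmer probe set was lower at 6 h (-0.28 ± 0.08) and 24 h (-0.36 ± 0.08), whereas the brightest did not pass. These p-values of other probe sets come from a fit over all probe sets with 1 symbol.

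The receptor tyrosine phosphatases are adhesion receptors of cell contacts. Ptprm, which binds itself across neighbouring cells, ran from 7.39 to 8.05 (median 7.62) in D5W kidneys and from 6.30 to 7.06 (median 6.74) in oxaliplatin kidneys at 6 h, without overlap. The level was 1.88-fold lower (-0.91 ± 0.11, adjusted p = 8.75e-11), and at 24 h it was 1.33-fold lower (-0.42 ± 0.11, adjusted p = 0.00597), again without overlap. Ptprk, a relative of Ptprm, was lower at 6 h (-0.39 ± 0.06). Ptprd, a receptor known from synapse formation and the longest gene of the list called in kidney (2322 kb), ran from 10.70 to 11.45 (median 11.12) in D5W kidneys and from 10.28 to 10.74 (median 10.57) after oxaliplatin at 6 h. These ranges overlapped slightly, and the difference was -0.58 ± 0.06 (adjusted p = 9.23e-12). At 1 h and 24 h Ptprd stood at -0.01 and -0.04, which did not pass.

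Genes of vesicle traffic formed the next group. Vps13b, a lipid transfer protein of the Golgi that is mutated in human Cohen syndrome, was the 1 gene of the list lower at each time in kidney. At 6 h it ran from 8.47 to 8.74 (median 8.66) with D5W and from 7.43 to 8.06 (median 7.82) with oxaliplatin, without overlap. The differences were -0.29 ± 0.08 at 1 h (adjusted p = 0.00676), -0.84 ± 0.08 at 6 h (adjusted p = 1.52e-14) and -0.29 ± 0.08 at 24 h (adjusted p = 0.00978). The SNARE gene Vti1a, which serves membrane fusion at the trans-Golgi, ran from 7.89 to 8.02 (median 7.93) and from 6.995 to 7.36 (median 7.24) at 6 h. This gap, larger than the spread of either group, gave -0.73 ± 0.05 (adjusted p = 6.01e-20), beside -0.13 at 1 h and 0.05 at 24 h, which did not pass. Lrba, a BEACH-domain protein of vesicle sorting, was lower at 1 h (-0.29 ± 0.06) and at 6 h (-0.63 ± 0.06, adjusted p = 1.38e-12), at 6 h with levels from 9.58 to 9.92 (median 9.78) against 8.77 to 9.35 (median 9.14). At neither of these times did the groups overlap. Its relative Nbea was lower at 6 h (-0.47 ± 0.10) and 24 h (-0.36 ± 0.10), and Ehbp1, which links endocytic vesicles to actin, at 1 h (-0.38 ± 0.07) and 6 h (-0.27 ± 0.07).

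**Figure D2:**
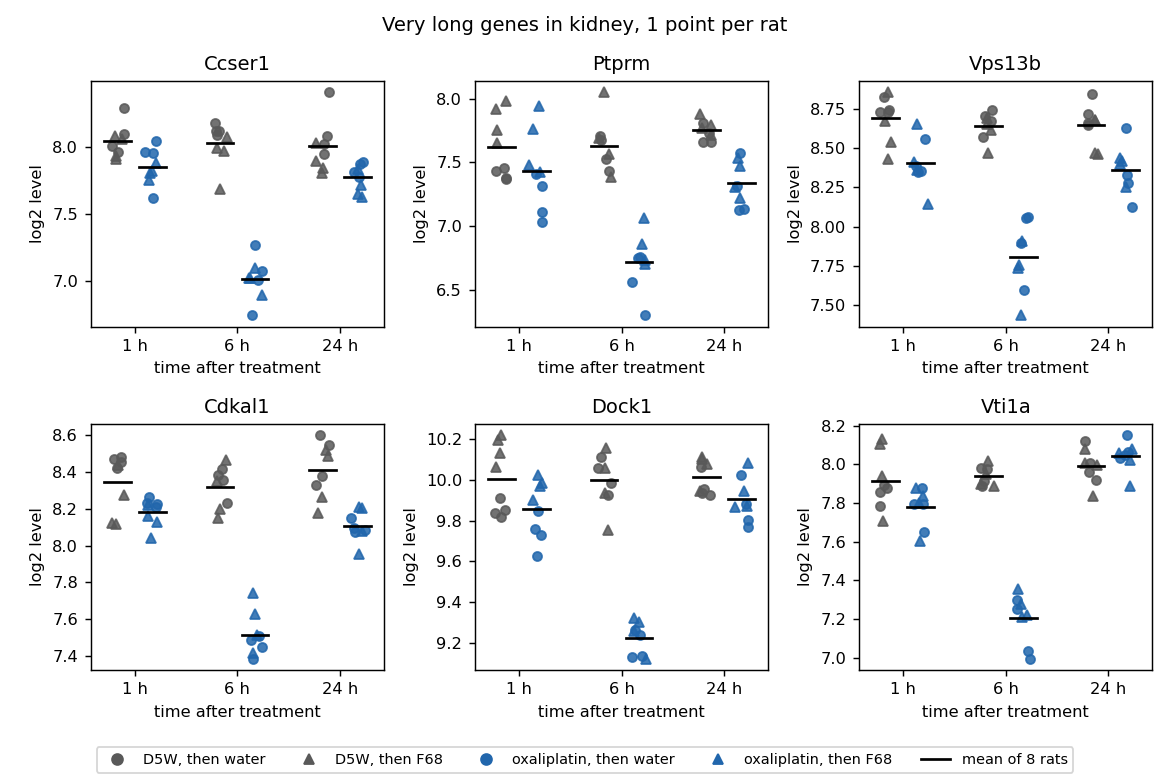
Log2 level of 6 very long genes in single kidneys (points) at 1, 6 and 24 h after dosing, for rats given D5W (grey) or oxaliplatin (blue) and then water (circles) or F68 (triangles), with the mean of 8 rats as a line. At 6 h all oxaliplatin rats lie below all D5W rats in each of the 6 genes, while at 24 h the ranges of Vti1a and Dock1 overlap widely.

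Dock1 activates the GTPase Rac in cell migration and engulfment. It ran from 9.75 to 10.16 (median 10.02) in D5W kidneys at 6 h and from 9.12 to 9.32 (median 9.25) in oxaliplatin kidneys, without overlap. The level was 1.71-fold lower (-0.78 ± 0.05, adjusted p = 4.09e-20), and at 24 h the difference of -0.11 did not pass. Cdkal1, which modifies a transfer RNA for lysine, ran from 8.15 to 8.47 (median 8.36) and from 7.39 to 7.74 (median 7.50) at 6 h. It was lower at 6 h (-0.80 ± 0.06, adjusted p = 2.31e-17) and at 24 h (-0.31 ± 0.06), with overlap at the later time. Fto, an RNA demethylase, was lower at 6 h (-0.56 ± 0.04, adjusted p = 3.21e-19), with D5W kidneys from 10.05 to 10.26 and oxaliplatin kidneys from 9.42 to 9.74. Of the signalling genes, the kinase Mast4 fell at 1 h (-0.38 ± 0.07) and 6 h (-0.28 ± 0.07), the cAMP phosphodiesterase Pde4d at the same times (-0.22 ± 0.06 and -0.18 ± 0.06) and the neuregulin receptor Erbb4 at 6 h (-0.32 ± 0.10). Erbb4 was dim in kidney, with a mean log2 level of 5.83. The polarity scaffold Pard3 (-0.60 ± 0.10) and the secreted guidance protein Slit3 (-0.30 ± 0.08) were lower at 6 h.

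Of the 8 genes lower as early as 1 h, 3 encode transcription regulators (Zbtb20, Foxp1 and Tcf7l2), and the others were Mast4, Ehbp1, Pde4d, Lrba and Vps13b. Zbtb20, a zinc finger repressor, ran from 11.07 to 11.48 (median 11.30) in D5W kidneys at 1 h and from 10.65 to 11.05 (median 10.90) in oxaliplatin kidneys. The groups did not overlap, and the difference was -0.43 ± 0.06 (adjusted p = 5.24e-08). Foxp1, a forkhead factor, was lower at 1 h (-0.40 ± 0.08) and 6 h (-0.52 ± 0.08), without overlap at either time, and Tcf7l2, the nuclear effector of Wnt signals, at 1 h (-0.37 ± 0.06) and 6 h (-0.21 ± 0.06). Tcf4, a basic helix-loop-helix factor, and Supt3h, a subunit of the SAGA coactivator, were lower at 6 h (-0.32 ± 0.08 and -0.50 ± 0.07). All 8 genes lower at 1 h were also lower at 6 h, as 100% of the first list and 33.3% of the second, and so were all 7 lower at 24 h (100% and 29.2%). Each time had its own D5W rats.

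The fall at 6 h differed from that at 1 h in 11 kidney genes of the list, all with the larger fall at 6 h (2.75% of all genes differed in this direction). It differed from 24 h in 14 genes, all higher at 24 h than at 6 h (6.26% of all genes). The largest changes between 1 and 6 h were those of Ccser1 (-0.83 ± 0.11), Ptprm (-0.73 ± 0.15), Cdkal1 (-0.64 ± 0.09) and Dock1 (-0.63 ± 0.08), and between 6 and 24 h those of Ccser1 (0.79 ± 0.11) and Vti1a (0.78 ± 0.07). Fhit, Nbea and the brightest probe set of Wwox, which were lower at both 6 and 24 h, changed by -0.05, 0.11 and -0.07 between these times, and these changes did not pass. Within each tissue, the array identifiers at 24 h share a prefix that those at 1 and 6 h do not. Differences between 24 h and the earlier times thus hold any difference between these array series that acted unequally on oxaliplatin and D5W arrays.

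By measured level, the longest genes were not those that fell most, though some of them were dim. Among the 5 longest genes tested in kidney, Ptprd fell at 6 h, Tenm4, a teneurin that is not on the list and spans 2975 kb, was slightly lower at 6 h (-0.24 ± 0.06, adjusted p = 0.00213), and Dmd (dystrophin), Cntnap2 (a contactin-associated receptor) and Rbfox1 (a splicing regulator that is not on the list) passed at 0 of 3 times. Dmd stood at -0.01, -0.11 and 0.06 log2 in kidney. Cntnap2, Dlg2 (a synaptic scaffold), Dmd, Ebf1 (a factor of B cells and fat cells) and Nav2 (neuron navigator) were the 5 tested genes of the list that passed at no time and in no tissue over both oral vehicles. Their mean log2 levels in kidney were 5.76, 6.18, 7.05, 7.82 and 9.01 in this order, beside 11.0 for Ptprd. Signal near or below the filter value of 6 limits what can be said of Cntnap2 and Dlg2. With water alone Nav2 was lower in kidney at 6 h (-0.54, adjusted p = 0.0311), beside 0.13 with F68. Over the 32 genes, Spearman's rho between span and difference in kidney was 0.17, 0.23 and -0.19 at 1, 6 and 24 h, and between mean level and difference -0.25, -0.23 and 0.11. These are descriptions over genes measured on the same arrays. Of the 20 genes with a mean log2 level over 8 in kidney 17 were lower at 6 h, and of the 12 dimmer ones 7, a split chosen after seeing the data. Among all kidney genes over that level, 4.69% under 10 kb, 64.3% from 300 to 600 kb and 55.2% over 600 kb were lower at 6 h. The share of all dimmer genes is not given.

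Further probe sets of the called kidney genes mostly had differences of the same sign. In kidney at 6 h, 11 of the 24 called genes had other probe sets above the filter, 23 in all, of which 10 were lower, 0 were higher and 22 had a difference below 0. At 1 h the 4 called genes with several probe sets had 12 others, 7 of them lower and 12 below 0. For Foxp1, 3 of the 4 other probe sets were lower at both times. In kidney at 6 h 0 of the 5 others of Zbtb20 were lower, 0 of 2 each of Pard3 and Tcf7l2, and 0 of 1 of Pde4d. In liver at 6 h the 4 called genes with several probe sets had 5 others, 2 of them lower and 4 below 0. Rbms3, an RNA-binding protein whose brightest kidney probe set did not pass at 6 h (-0.34 ± 0.14, adjusted p = 0.0696), had 1 other probe set, which was lower. In heart at 24 h the probe sets disagreed. Of the 26 others 6 were lower (of Ebf1, Foxp1, Pde4d, Ptprd, Tcf4 and Tcf7l2), though the brightest ones of these genes were not called, and the 5 others of Zbtb20, the called gene that had any, included 0 that were lower. For Ptprd the other probe set stood at -0.39 ± 0.10 and the brightest at 0.07. The shares of all tested probe sets that were lower are not given beside these counts.

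Set beside all genes, the share of genes lower after oxaliplatin rose with genomic span. In kidney at 6 h it was 3.41% of 3225 genes under 10 kb, 4.08% of those from 10 to 30 kb, 6.47% from 30 to 100 kb, 24.3% from 100 to 300 kb, 50% of 246 genes from 300 to 600 kb and 38.2% of 76 genes over 600 kb. The share of higher genes went the other way, from 13.8% under 10 kb to 0.407% and 1.32% in the 2 longest classes. At 1 h 0.806% of the shortest and 22.4% of the genes from 300 to 600 kb were lower, and 11.8% of those over 600 kb. At 24 h the share was 1.86% under 10 kb, 2.65% from 100 to 300 kb, 14.6% from 300 to 600 kb and 19.7% over 600 kb. With the listed genes, 47.2% of 322 kidney genes over 300 kb were lower at 6 h. Of the 292 left without them 44.5% were lower at 6 h, 19.9% at 1 h and 15.1% at 24 h. The shares of the 32 listed genes at these times were larger, at 75%, 25% and 21.9%. Median differences ran from 0.02 under 10 kb to -0.23 and -0.17 in the 2 longest classes at 6 h. They lay on the same side with water (0.03, -0.27 and -0.16) and with F68 (0.02, -0.19 and -0.18).

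**Figure D3:**
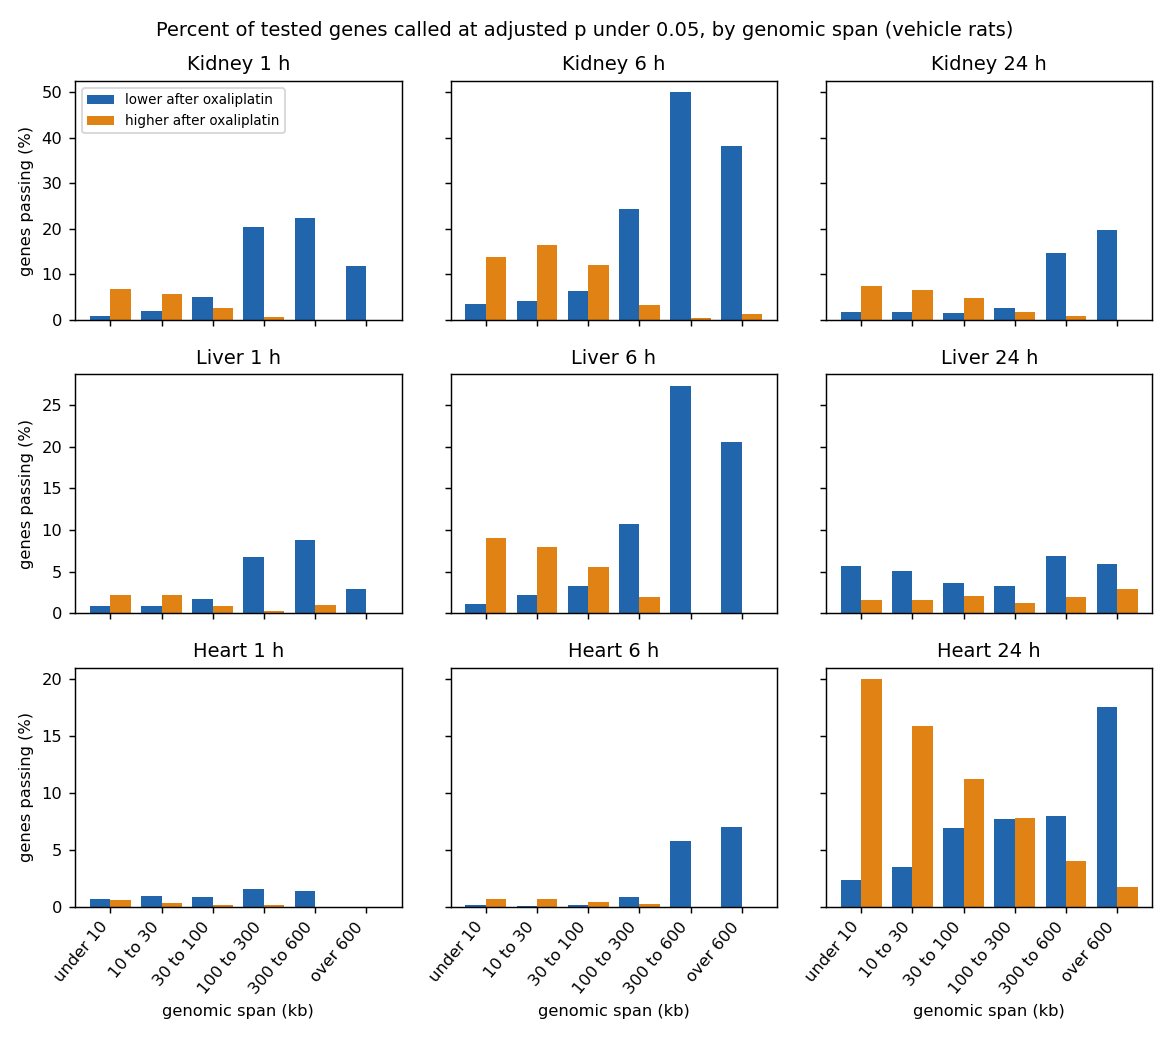
Percent of tested genes called lower (blue) or higher (orange) after oxaliplatin in rats given an oral vehicle, by genomic span class, for each tissue (rows, each with its own vertical scale) and time (columns). In kidney at 6 h 50% of the genes from 300 to 600 kb and 38.2% of those over 600 kb were lower, against 3.41% under 10 kb.

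Long genes were dimmer on the array than short ones. The median over genes of their mean log2 level in kidney fell from 8.96 under 10 kb to 7.85 and 7.51 in the 2 longest classes. Among genes with a mean over 8, an added comparison, 64.3% of 115 genes from 300 to 600 kb and 55.2% of 29 genes over 600 kb were lower at 6 h, against 4.69% of 2088 genes under 10 kb. Across all 12300 kidney genes with a span, Spearman's rho between span and difference was -0.32 at 1 h, -0.21 at 6 h and -0.12 at 24 h. Genes on the same arrays are not independent replicates.

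In liver fewer of the very long genes were lower, most of them also at 6 h. Of 29 genes 4 were lower at 1 h (1.87% of all genes), 10 at 6 h (3.67%) and 1 at 24 h (4.69%), when 1 was higher (1.73%). The median differences were -0.12, -0.14 and -0.05 log2, beside -0.01, 0.01 and -0.02 over all 11619 genes. Of the 10 genes lower at 6 h, 9 were also lower in kidney (90% of the liver list and 37.5% of the kidney list), the exception being Rbms3. The brightest probe set of Rbms3 was not the same in both tissues. The one used in liver was lower in kidney at 6 h too (-0.39 ± 0.11, adjusted p = 0.00815 in the limma fit over all probe sets). Kidney and liver came from the same rats. In 5 of the 29 genes all oxaliplatin livers lay below all D5W livers at 6 h, as in 0.525% of all genes.

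Ptprm had the largest difference among the brightest probe sets over both vehicles in any tissue. Its log2 level in liver at 6 h ran from 6.53 to 7.04 (median 6.80) with D5W and from 5.00 to 6.14 (median 5.41) with oxaliplatin, without overlap. The level was 2.43-fold lower (-1.28 ± 0.12, adjusted p = 1.39e-12). It was lower already at 1 h (-0.46 ± 0.12, adjusted p = 0.0181), and at 24 h the difference of -0.21 ± 0.12 did not pass. Dock1 ran from 8.31 to 8.62 (median 8.42) and from 7.61 to 8.12 (median 7.83) at 6 h, again without overlap (-0.60 ± 0.07, adjusted p = 2.25e-09). Rbms3 ran from 7.40 to 7.86 (median 7.74) and from 6.92 to 7.35 (median 7.16), with every oxaliplatin liver below every D5W liver (-0.55 ± 0.07, adjusted p = 9.01e-08).

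Nbea was dim in liver, from 5.75 to 6.04 (median 5.98) with D5W and from 5.17 to 5.66 (median 5.43) with oxaliplatin at 6 h. The groups did not overlap, and the difference was -0.54 ± 0.07 (adjusted p = 9.01e-08). Ptprd ran from 10.59 to 11.32 (median 11.22) and from 10.31 to 10.82 (median 10.63), overlapping through 1 D5W liver (-0.54 ± 0.09, adjusted p = 1.84e-05). With F68 alone its difference of -0.41 did not pass (adjusted p = 0.0933). Vps13b ran from 7.54 to 8.01 (median 7.74) and from 6.94 to 7.68 (median 7.35) (-0.42 ± 0.09, adjusted p = 0.00127), and with F68 alone -0.37 did not pass (adjusted p = 0.153). Lrba (-0.30 ± 0.06), Supt3h (-0.27 ± 0.05) and Cdkal1 (-0.19 ± 0.06) were the other genes lower in liver at 6 h besides Fhit.

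Fhit had another time course in liver. Its difference was 0.02 at 1 h, -0.33 ± 0.09 at 6 h (adjusted p = 0.0123) and -0.55 ± 0.09 at 24 h (adjusted p = 6.02e-05). At 24 h D5W livers ran from 7.71 to 8.10 (median 7.92) and oxaliplatin livers from 7.01 to 7.79 (median 7.35), 7 of the 8 below the lowest D5W liver. Mast4 was lower at 1 h (-0.27 ± 0.08) and was the 1 gene of the list called higher, at 24 h (0.31 ± 0.08, adjusted p = 0.00938), with levels from 6.50 to 7.20 (median 6.83) against 6.80 to 7.33 (median 7.18). These ranges overlapped. Compared with 1 h, Ptprm and Dock1 had a larger fall at 6 h (2 genes, 0.405% of all genes), and 8 genes were higher at 24 h than at 6 h (1.86% of all genes), led by Ptprm (1.07 ± 0.18).

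**Figure D4:**
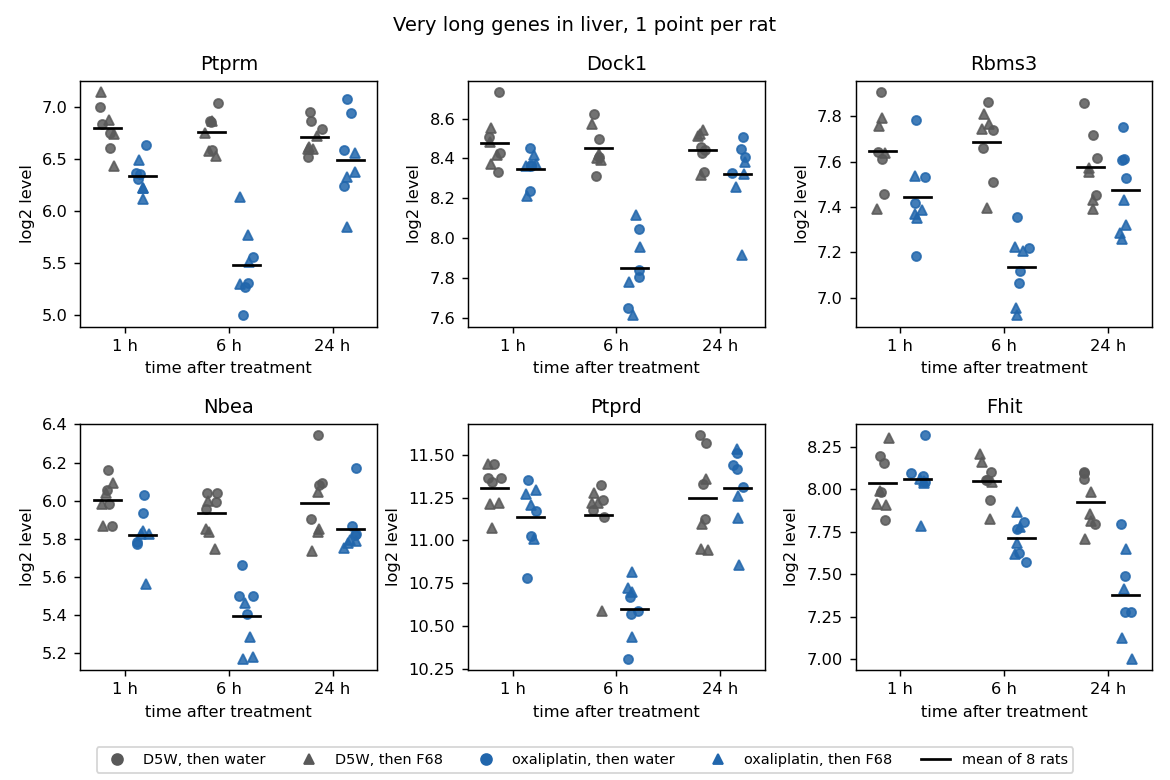
Log2 level of 6 very long genes in single livers (points) at 1, 6 and 24 h after dosing, for rats given D5W (grey) or oxaliplatin (blue) and then water (circles) or F68 (triangles), with the mean of 8 rats as a line. Ptprm, Dock1, Rbms3 and Nbea separate the groups at 6 h, and Fhit lies lowest at 24 h.

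The calls in liver at 1 h were Ptprm, Tcf4 (-0.31 ± 0.08), Mast4 and Tcf7l2, whose levels ran from 9.84 to 10.52 (median 10.35) with D5W and from 9.59 to 10.23 (median 9.85) with oxaliplatin, with overlap (-0.44 ± 0.11, adjusted p = 0.0076). Within water (-0.38, adjusted p = 0.227) and within F68 (-0.50, adjusted p = 0.155) Tcf7l2 did not pass. At 1 h 0 of the 29 genes passed within either day, while 113 (water) and 47 (F68) of all 11619 genes were lower. The count of 4 became 2 without any 1 of 3 arrays, namely replicate 2 of oxaliplatin then F68, replicate 3 of D5W then F68 and replicate 4 of D5W then water. Markers of other cell types moved in liver. Of 8 endothelial markers 4 were lower at 1 h (mean log2 level 8.94 to 9.15 with D5W and 8.51 to 8.79 with oxaliplatin) and 1 at 6 h. At 24 h 1 was lower (Stab2) and 1 higher (Eng). Of 9 macrophage markers 2 were lower at 1 h, 5 at 6 h (10.21 to 11.70 against 10.00 to 10.50) and 7 at 24 h (10.32 to 10.91 against 9.73 to 10.43). Of 10 hepatocyte markers 0 were lower at any time, and 1 was higher at 1 h (Tat). Among all liver genes 1.87%, 3.67% and 4.69% were lower at 1, 6 and 24 h. Higher were 1.59% at 1 h and 1.73% at 24 h. The part of these cell types in the results for the long genes was not tested. In kidney 2 of 10 kidney markers (Cubn and Lrp2) were lower at 1 h, beside 4.96% of all genes. At 6 h 1 of 8 endothelial, 1 of 8 macrophage and 3 of 10 kidney markers (Umod, Cubn and Lrp2) were lower, beside 7.88% of all genes. At 24 h 2 of 8 macrophage markers (Csf1r and Lyz2) and 1 of 10 kidney markers (Umod) were lower, beside 2.19%.

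By span, liver at 6 h resembled kidney with smaller shares. The share of lower genes was 1.12% under 10 kb, 10.7% from 100 to 300 kb, 27.3% of 205 genes from 300 to 600 kb and 20.6% of 68 genes over 600 kb. At 1 h it was 0.823%, 6.78%, 8.78% and 2.94% in these classes. At 24 h it was 5.69%, 3.27%, 6.83% and 5.88%, and Spearman's rho between span and difference over 11608 genes went from -0.19 and -0.16 at 1 and 6 h to 0.03 at 24 h. Among 246 other liver genes over 300 kb 24.4% were lower at 6 h, beside 34.5% of the 29 listed genes.

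In heart the median differences were small and few genes passed. Of 30 very long genes 0 were lower at 1 h by limma (0.919% of all genes), with 3 at an unadjusted p under 0.05, and 3 were lower at 6 h (0.336% of all genes) and 3 at 24 h (4.75%). The median differences were -0.03, -0.08 and -0.02 log2, beside -0.03, 0.01 and 0.03 over all 11317 genes. With replicate 4 of D5W then F68 left out, 1 gene passed at 1 h. At 6 h the called genes were Ptprd, Vps13b and Dock1, all of which were also lower in kidney and liver at that time, and these were the 3 genes lower in every tissue. Ptprd ran from 8.51 to 9.17 (median 8.76) in D5W hearts and from 7.98 to 8.69 (median 8.37) in oxaliplatin hearts, with overlap (-0.47 ± 0.09, adjusted p = 0.000523). The differences of Vps13b (-0.26 ± 0.07, adjusted p = 0.0409; 7.46 to 7.75 against 7.005 to 7.66) and Dock1 (-0.20 ± 0.05, adjusted p = 0.0267; 8.85 to 9.07 against 8.59 to 8.90) were smaller than those in the other tissues. Leaving out 1 array ended the call of Vps13b for 9 of 16 arrays (adjusted p up to 0.119) and that of Dock1 for 5 (up to 0.0929). The count of 3 became 1 without D5W then F68 replicate 3 or oxaliplatin then water replicate 4.

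The share of lower heart genes at 6 h was 0.135% under 10 kb, 5.75% of 226 genes from 300 to 600 kb and 7.02% of 57 genes over 600 kb. The median difference in the 2 longest classes was -0.08 and -0.07, with -0.08 and -0.10 in rats given water and -0.08 and -0.05 in those given F68. Spearman's rho between span and difference over 11308 genes was 0.00 at 1 h, -0.17 at 6 h and -0.18 at 24 h. From 1 to 6 h the fall of Ptprd grew by more than its error (-0.53 ± 0.12, 1 gene of 30 and 0.0707% of all genes). From 6 to 24 h 5 genes were higher (5.06% of all genes) and 2 lower (2.55%), the latter Rora and Zbtb20.

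The heart calls at 24 h were Rora, a nuclear receptor of the circadian clock, Lpp, a LIM-domain protein of cell adhesions, and Zbtb20, and those of Rora and Zbtb20 were set by the D5W rats given water. The log2 level of Rora was 8.18, 8.14, 8.07 and 7.97 in the 4 hearts given D5W then water and from 6.14 to 6.51 in the 4 given D5W then F68. It ran from 5.82 to 6.57 (median 6.35) in the 8 oxaliplatin hearts. The oxaliplatin range thus overlapped the F68 controls and lay below the water controls. The difference was -0.94 ± 0.10 over both vehicles (adjusted p = 1.85e-11), -1.82 with water and -0.07 with F68. Zbtb20 had the same split, with 11.61 to 11.81 in hearts given D5W then water, 10.91 to 10.95 in those given D5W then F68 and 10.86 to 11.16 after oxaliplatin. Its difference was -0.37 ± 0.06 over both (adjusted p = 9.24e-07), -0.78 with water and 0.03 with F68. Lpp ran from 6.85 to 7.80 (median 7.39) with D5W and from 6.54 to 7.28 (median 6.83) with oxaliplatin (-0.48 ± 0.13, adjusted p = 0.00449), with overlap, and passed with neither vehicle alone (-0.25 and -0.71).

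The same D5W then water hearts at 24 h stood apart in an RNA control, the log2 difference between the 3′ and 5′ probe sets of beta-actin, which was 0.71 to 0.81 there and 0.37 to 0.62 in the oxaliplatin hearts. With this control as a covariate the differences were -1.005 for Rora, -0.49 for Lpp and -0.40 for Zbtb20, and 4 genes were lower. With water alone 5 of the 30 genes were lower and with F68 alone 0 (counts over all genes within 1 vehicle are not given). Without D5W then F68 replicate 3 or D5W then water replicate 3 the count was 5. The span classes at 24 h in heart (2.36% lower under 10 kb and 17.5% over 600 kb) followed the same split, since the median difference ran from 0.10 under 10 kb to -0.06 over 600 kb with water and from 0.01 to -0.01 with F68. Of the heart's markers of other cell types at 24 h, 1 of 8 endothelial (Kdr), 1 of 9 macrophage (Csf1r) and 2 of 7 fibroblast markers (Col1a2 and Col3a1) were lower, and 2 endothelial ones (Vwf and Eng) higher. At 6 h 1 macrophage marker (Adgre1) was lower and Eng higher, and at 1 h 3 of 9 macrophage markers were lower. Among all heart genes 0.919%, 0.336% and 4.75% were lower at 1, 6 and 24 h. Higher were 0.53% at 6 h and 14.5% at 24 h. The part of RNA quality and of these cell types in the heart results was not tested. In kidney and liver the medians of this control in D5W and oxaliplatin rats were 0.466 and 0.486 in kidney and 0.797 and 0.84 in liver at 6 h, and the ranges overlapped.

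Rats that also received a kinase inhibitor gave a second set of animals, 8 against 8 at each time. In kidney 23 of 32 genes were lower at 6 h (7.91% of all genes), 22 of them among the 24 called with an oral vehicle (95.7% and 91.7% of the lists). Rbms3 was called with the inhibitors alone (-0.61 ± 0.14, beside -0.34 with the vehicles), and Erbb4 and Wwox with the vehicles alone. Dock1 stood at -0.98 ± 0.05 with the inhibitors, Ptprm at -1.05 ± 0.11, Ccser1 at -1.03 ± 0.08 and Vti1a at -0.73 ± 0.05. In liver 11 of 29 were lower at 6 h (2.38%), which held all 10 called with a vehicle and Fto, with Ptprm at -1.32 ± 0.12. The test of the difference between inhibitor and vehicle rats called 0 of 32 genes in kidney at 6 h, and 0 of all 12310 genes (0%). An unadjusted p under 0.05 was met by 3 of the 32, and a difference that misses the threshold does not show that the effects were alike.

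**Figure D5:**
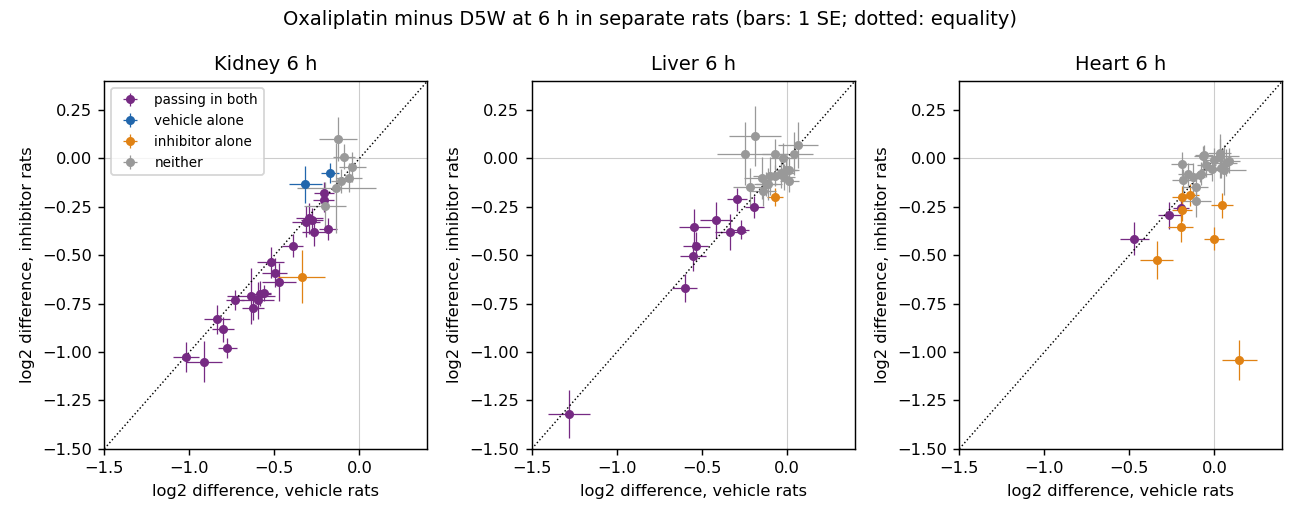
Log2 difference of oxaliplatin from D5W at 6 h in rats given an oral vehicle (horizontal) and in separate rats given sunitinib or sorafenib (vertical), for the tested very long genes in kidney, liver and heart, with bars of 1 standard error and a dotted line of equal values. Ptprm lies at -1.28 and -1.32 in liver, and in heart Rora is the point far below the line, at 0.15 and -1.04.

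At the other times fewer genes passed with the inhibitors. In kidney 4 were lower at 1 h (2.33% of all genes) and 3 at 24 h (1.06%). At 1 h these held 3 of the 8 genes called with a vehicle (37.5%), without Ehbp1, Foxp1, Lrba, Pde4d and Vps13b. The median difference over the 32 genes was -0.02 (0.04 over all genes), and 19 were below 0. It was 0.04 with sunitinib (0.09 over all genes) and -0.08 with sorafenib (-0.005). The test of inhibitor against vehicle rats called 0 of the 32 at 1 h. The count of lower genes at 1 h was 8 without oxaliplatin then sunitinib replicate 1, an array with low hybridization controls. At 24 h 1 gene was left without D5W then sorafenib replicate 2 or 3, D5W then sunitinib replicate 2, oxaliplatin then sorafenib replicate 4 or oxaliplatin then sunitinib replicate 1. The first of these arrays had the highest level of other tissues' markers among the kidney arrays kept (9.68). In liver 3 were lower and 1 higher at 1 h (1.20% and 1.45% of all genes), and 2 lower and 3 higher at 24 h (5.63% and 16.1%). The 24 h counts differed between the inhibitors. With sunitinib alone 1 of the 29 genes was lower and 0 higher (71 and 49 of all 11619 genes). With sorafenib alone 3 were lower and 7 higher (1130 and 3195). The paper reports that the livers given the infusion vehicle and then sorafenib at this time stood apart in array quality measures. It calls a biological origin likely, but asks for further quality assessment. Of these arrays 3 were kept here. The 24 h count of lower genes over both inhibitors was 4 without D5W then sorafenib replicate 4 or oxaliplatin then sorafenib replicate 2. Fhit was lower at 24 h in both tissues with the inhibitors too (-0.53 ± 0.15 in kidney and -0.41 ± 0.10 in liver). The inhibitor and vehicle rats differed in 1 liver gene of the list at 24 h, Vti1a (0.29, 15.6% of all genes in either direction). This test pooled both inhibitors, whose liver counts at 24 h differed as given above.

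In heart 1 gene was lower with the inhibitors at 1 h (4.64% of all genes), 11 at 6 h (7.57%) and 1 at 24 h (0.318%). The gene at 1 h was Dmd (-0.45 ± 0.09, beside 0.11 ± 0.09 with the vehicles), and the difference between both sets of rats passed for Dmd, Pard3, Vps13b and Rbms3 (15.7% of all genes). At 6 h 1 gene was lower with sunitinib alone (17 of all 11317 genes) and 11 with sorafenib alone. The count over all genes with sorafenib alone is not given, so the 11 cannot be set beside it. The hearts given D5W then sorafenib at 6 h stood apart in the beta-actin control (0.49 to 0.77). Over both inhibitors at 6 h Rora stood at -1.04 ± 0.10 and Zbtb20 at -0.42 ± 0.06, and with Foxp1 they differed from the vehicle rats (5.18% of all genes). At 24 h Rora stood at 0.25 and Zbtb20 at 0.00 in the inhibitor rats, neither of which passed, and the difference from the vehicle rats passed for both (1.19 and 0.38, 5.47% of all genes). The 1 gene called at 24 h was Fhit, and leaving out D5W then sorafenib replicate 2 or D5W then sunitinib replicate 2 ended that call.

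Genes that carry out transcription elongation and transcription-coupled repair were examined beside the long genes. Of 44 such genes tested in kidney, 14 were higher at 6 h, 1 was lower and 29 did not pass (median 0.11), while 12.7% of all genes were higher. The longest of them, Aff1, spanned 163 kb. Among kidney genes with a mean log2 level over 8, 18.5% under 10 kb, 20.5% from 10 to 30 kb and 15.4% from 30 to 100 kb were higher at 6 h. Polr2a, the catalytic subunit of RNA polymerase II, rose by 0.31 ± 0.06, the elongation factor genes Supt5h and Paf1 by 0.18 each, Top1, which relieves torsion ahead of the polymerase, by 0.21 ± 0.05, and Xab2 and Gtf2h1, which act in transcription-coupled repair, by 0.20 and 0.21. Tcea3, a tissue-restricted factor that restarts arrested polymerase, fell (-0.41 ± 0.07). In liver 6 of 43 were higher at 6 h (6.72% of all genes), Polr2a (0.22), Supt5h (0.19), Paf1 (0.21), Cdk12 (0.26), Ercc3 (0.17) and Gtf2h1 (0.22), and Tcea3 (-0.33) and the damage-binding protein Xpa (-0.22) were lower. In heart Polr2a alone was called at 6 h (0.31 ± 0.06; 0.53% of all genes higher), and of 43 genes 10 were higher and 2 lower at 24 h (14.5% of all genes higher), the time at which the D5W then water hearts stood apart. At 1 h 5 were higher in kidney (4.45% of all genes), among them the elongation factor Ell (0.36 ± 0.06), and 1 in liver (1.59%). At 24 h 3 were lower in kidney (2.19% of all genes), Polr2d (-0.13), Ccnt2 (-0.21) and Hexim1 (-0.17). In liver 2 were lower at 24 h (4.69%), Polr2d (-0.21) and Nelfe (-0.28).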

How the data were processed

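The values are deposited log2 expression values, made by the authors from Affymetrix rat genome arrays with RMA (background correction, quantile normalization and median polish). Arrays give no read depth, so the number of rats limits the precision. Of 31099 probe sets, 20832 carry 1 gene symbol, 436 several and 9831 none. Each gene was represented by its brightest probe set in a tissue, and genes with a log2 level over 6 on at least 4 arrays of that tissue were tested. Spans and promoters are those of RefSeq on GRCr8. In each tissue 1 linear model with 24 group means was fitted in limma 3.58.1 (R 4.3.3), and contrasts were taken between the means of 2 oxaliplatin and 2 D5W groups, with Benjamini-Hochberg adjustment over all genes tested. The fit was tested on simulated data. Groups came from the labels, and replicate numbers only name rats.

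The listed genes and the elongation and marker lists were chosen with earlier results of these data known. The rule for named genes took, per tissue, the 8 called genes with the largest difference at any time and every gene called lower in 2 or more tissues; other genes named were chosen after their values were seen. Alternatives were normalization, centring, probe set choice, filters, fewer groups in the fit, 1 dosing day, arrays kept or left out, beta-actin as a covariate and leaving out each rat. The level splits at 8 and the kidney array with low hybridization controls were chosen after seeing the data.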

Additional observations from a re-analysis of the deposited data

Results flagged for a closer look

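Of 88 groups of 4 arrays examined for the named genes, 5 held an array far from the other 3 by Dixon's criterion, and chance gives about 1 in 20. Of these, 3 were the same liver. In the liver given D5W then F68, replicate 4 at 6 h, the log2 level was 8.57 for Dock1 (the others 8.39 to 8.42), 7.40 for Rbms3 (7.74 to 7.81) and 10.59 for Ptprd (11.22 to 11.28). In the liver given D5W then water, replicate 4 at 24 h, Fhit stood at 7.80 (8.06 to 8.10), and in the heart given oxaliplatin then F68, replicate 3 at 6 h, Dock1 stood at 8.90 (8.61 to 8.66).

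The other results listed here are differences of the oxaliplatin effect between times, tested in limma with Benjamini-Hochberg adjustment, given as later minus earlier log2 difference. In kidney the change from 1 to 6 h and from 6 to 24 h was -0.83 and 0.79 for Ccser1, -0.73 and 0.50 for Ptprm, -0.55 and 0.55 for Vps13b, -0.64 and 0.50 for Cdkal1, -0.63 and 0.67 for Dock1, -0.60 and 0.78 for Vti1a and -0.33 and 0.56 for Lrba. In liver it was -0.82 and 1.07 for Ptprm and -0.47 and 0.48 for Dock1, and from 6 to 24 h it was 0.45 for Rbms3, 0.61 for Ptprd and 0.40 for Nbea. In heart it was -0.53 and 0.54 for Ptprd, and from 6 to 24 h -1.09 for Rora and -0.37 for Zbtb20. The largest adjusted p of these was 0.0221, that of Ptprd in heart from 1 to 6 h.

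The heart effect at 24 h also differed between the rats given a kinase inhibitor and those given a vehicle, by 1.19 for Rora (adjusted p = 2.26e-09) and 0.38 for Zbtb20 (adjusted p = 0.00149).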

How the results depend on the processing

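In the alternatives other than leaving out an array, the named genes kept their direction and call 190 times, lost the call 19 times and turned direction once, Zbtb20 in heart at 24 h with F68 only (to 0.0318, adjusted p = 0.932). The kidney median at 6 h moved to -0.43 with water only and to -0.43 with the stricter filter. The counts of lower genes that moved by over 1.5 times were as follows, with cause not tested. Within 1 dosing day, where 4 rats stand against 4, kidney gave 5 (water) and 5 (F68) at 1 h, 14 (F68) at 6 h, and 3 (water) and 1 (F68) at 24 h. Liver gave 0 and 0 at 1 h and 5 (F68) at 6 h, and heart gave 1 (water) and 0 (F68) at 6 h and 5 and 0 at 24 h. With 1 inhibitor, kidney at 24 h gave 0 with sunitinib (61) and 0 with sorafenib (25). Liver gave 0 with sunitinib (71) and 0 with sorafenib (29) at 1 h. It gave 5 with sorafenib (30) at 6 h and 1 with sunitinib (71) at 24 h. Heart gave 0 with sorafenib (5) at 1 h, 1 with sunitinib (17) at 6 h and 0 with sorafenib at 24 h. Counts over all genes are not given for cases without brackets or for the alternatives that follow. Quantile normalization within a tissue gave 6 in heart at 6 h, 5 in heart at 24 h, and with an inhibitor 9 in kidney at 1 h and 4 in liver at 24 h. A mean of all probe sets gave 6 in heart at 24 h, the fit of 4 groups 0 in heart at 6 h, and the stricter filter 2 in liver at 1 h. Keeping the arrays with another tissue's markers gave 2 in liver at 1 h and, with an inhibitor, 1 at 1 h and 5 at 24 h. Leaving out the array with low hybridization controls gave 8 in kidney at 1 h with an inhibitor, an alternative chosen after seeing the data.

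Without 1 array at a time, the counts with a vehicle ran from 8 to 10, 24 to 25 and 6 to 8 in kidney at 1, 6 and 24 h, from 2 to 6, 9 to 11 and 1 to 1 in liver, and from 0 to 1, 1 to 4 and 3 to 5 in heart. With an inhibitor they ran from 4 to 8, 22 to 23 and 1 to 4 in kidney, from 2 to 3, 10 to 11 and 2 to 4 in liver, and from 1 to 1, 11 to 13 and 0 to 1 in heart. Of the named genes 14 calls were lost this way, all of Dock1 or Vps13b in heart at 6 h. With D5W then F68 replicate 3 or oxaliplatin then water replicate 4 left out, both were lost. Dock1 alone was lost without D5W then F68 replicate 1 or oxaliplatin then F68 replicate 2 or 4. Vps13b alone was lost without oxaliplatin then water replicate 1, oxaliplatin then F68 replicate 1, D5W then water replicate 1, 2 or 3, or D5W then F68 replicate 2 or 4. No paired analysis was possible because the rats compared are different animals and their replicate numbers, given here in accession order, link none of them. Array signal limits what can be said of Nrxn3, Atxn1 and Fbxl17, whose probe sets were below the filter.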
